A study of Mus musculus with 4 samples.

Results

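The neurons described here are excitatory nuclei of mouse hippocampus libraries that carry an uncommon set of transcripts, among them Ly6g6e, Nxph3 and Hmga2. They were chosen from the counts: a barcode needed at least 500 detected genes, at least 4 of 9 genes with a UMI (Kcnh8, Sntb1, Crybg1, Ly6g6e, Hmga2, Nxph3, Skap1, Adgrd1 and Pamr1), at least 1 UMI of Slc17a7 and at most 1 UMI of Gad1 and Gad2 together. A UMI is a molecular tag that marks 1 captured RNA molecule. This rule kept 909 of the 59750 nuclei with at least 500 genes, out of 60288 barcodes in all. The other 32221 nuclei that passed the Slc17a7 and Gad limits are called other excitatory nuclei below.

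The labels name 4 genotypes, each with 1 library of nuclear RNA from hippocampus: wild type (WT), total/global MAGL-KO (tKO), astrocyte specific MAGL-KO (aKO) and neuron specific MAGL-KO (nKO). MAGL is monoacylglycerol lipase, the product of Mgll, which breaks down the endocannabinoid 2-arachidonoylglycerol, and the series title asks what an excess of endocannabinoids in neurons does to cognition. The labels name no age, strain, sex, Cre driver of the cell-specific knockouts or number of animals behind a library. No genotype was measured in a second library, so the data allow no test between genotypes, and every 95% interval covers counting error only. Values listed by library are given in the order WT, tKO, aKO, nKO.

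Glutamatergic neurons load their vesicles through the transporters encoded by Slc17a7 and Slc17a6. In the cortex and at its border with the hippocampus, deep-layer classes of such neurons differ in target and in transcripts: near-projecting neurons are known for Tshz2 and Vwc2l, layer 6 corticothalamic neurons for Foxp2 and Tle4, and layer 6b neurons for Nxph4 and Cplx3. Neurexophilins such as Nxph3 are secreted ligands of the presynaptic neurexins, proteins of the Ly6 family such as Ly6g6e sit on the cell surface and are known as partners of nicotinic receptors, and Hmga2 encodes a chromatin protein that is mostly known from development and is held down by let-7 microRNAs.

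The libraries held 9369, 31243, 10731 and 8945 barcodes with medians of 8904, 5456, 7448 and 8446 UMIs. Scrublet, a caller of droplets that caught more than 1 nucleus, marked 3.94%, 26.1%, 5.80% and 1.74% of those with at least 500 genes. Pairs of libraries shared between 108 and 466 barcode sequences, and none of these belonged to the selected neurons of both. The tKO library stood apart: it was the shallowest per nucleus, and it held Y-linked transcripts with almost no Xist, while the other 3 libraries held nuclei of both kinds. Among the selected neurons, 83, 316, 87 and 88 nuclei had a Y-linked UMI and no Xist UMI, and 80, 0, 69 and 77 had the reverse.

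The selected neurons made up 2.00% of the WT nuclei (186 of 9304, exact Clopper-Pearson 95% interval 1.72 to 2.30). The share was 1.10% in tKO (339 of 30929, 0.983 to 1.22), 1.84% in aKO (196 of 10664, 1.59 to 2.11) and 2.12% in nKO (188 of 8853, 1.83 to 2.45). The WT, aKO and nKO intervals overlapped, and the tKO interval lay below all of them. Depth moved with this difference: the selected neurons had medians of 10732, 7152, 7699.5 and 9674.5 UMIs. With each nucleus of at least 2000 UMIs thinned to 2000, the shares were 0.148%, 0.161%, 0.145% and 0.310%. The 511, 3599, 302 and 453 shallower nuclei were left out of these shares. The thinned shares rest on 13, 44, 15 and 26 nuclei, with 95% intervals of 0.0787 to 0.253, 0.117 to 0.216, 0.0810 to 0.239 and 0.202 to 0.453. The thinned tKO interval overlapped those of all 3 other libraries, and the part of depth in the differences was not tested. Scrublet marked 143 of the 909 as doublets, 6.99%, 26.3%, 16.3% and 4.79% by library, against 4.17%, 28.9%, 6.33% and 1.69% of the other excitatory nuclei. In aKO and nKO the selected neurons were thus called doublets at a higher rate than the rest, with intervals that did not overlap, and results that rest on marked nuclei are given below with and without them.

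The 9 genes of the rule are described first, since they define the group, and their levels support nothing further. Levels are in CPM, the usual unit for the UMIs of a gene relative to all UMIs of the group's nuclei in a library. Kcnh8, a voltage-gated potassium channel gene (chromosome 17, 52602709 to 52979194, GRCm38), stood at 391.8, 397, 461 and 551 CPM and at 1.55 to 5.33 CPM in other excitatory nuclei. Sntb1, a syntrophin that docks on the dystrophin complex (chromosome 15, 55636388 to 55906949), stood at 366, 352, 401 and 433 against 8.5 to 10.5 CPM. Nxph3 (chromosome 11, 95509845 to 95514570) stood at 89.2, 96.4, 94.6 and 90.6 against 2.14 to 4.23 CPM. The library levels of these 3 genes lay apart in the selected and the other nuclei, as the rule sets. In single nuclei, at least 1 UMI of Sntb1 was found in 93.4% of the selected neurons, of Kcnh8 in 78.0% and of Nxph3 in 59.3%.

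Ly6g6e (chromosome 17, 35076902 to 35078804) stood at 50.2, 42.9, 50.6 and 63.7 CPM against 0.573 to 0.969 CPM. Hmga2 (chromosome 10, 120361275 to 120476469) stood at 27.3, 36.3, 55.5 and 34.2 CPM against 0.414 to 0.948 CPM, from 61, 99, 102 and 65 UMIs, and was highest in aKO. Both are sparse genes: a UMI of Ly6g6e was found in 35.9% of the selected neurons and one of Hmga2 in 16.9%, against 0.667% and 0.509% of other excitatory nuclei. Most of the selected neurons therefore entered through the other genes. Sntb1 was detected in 93.4% of them, Pamr1 in 83.1%, Skap1, a signalling adaptor known from T cells, in 80.5%, Kcnh8 in 78.0% and Nxph3 in 59.3%. Adgrd1, an adhesion G protein-coupled receptor, was detected in 48.2% and Crybg1 in 47.5%.

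Nuclei that resemble dentate granule neurons, with at least 4 of 6 granule markers, were set beside the selected neurons. They were drawn from the other excitatory nuclei, so none held 4 or more rule genes. The part of free RNA in the droplets in their counts was not tested. In these granule-like nuclei the shares were 0.854% for Kcnh8, 0.241% for Ly6g6e, 0.372% for Hmga2, 0.350% for Nxph3 and 4.93% for Skap1. Their median was 7793 UMIs, against 8700 in the selected neurons. All 9 rule genes were far more often detected in the selected neurons, as the rule requires.

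**Figure D1:**
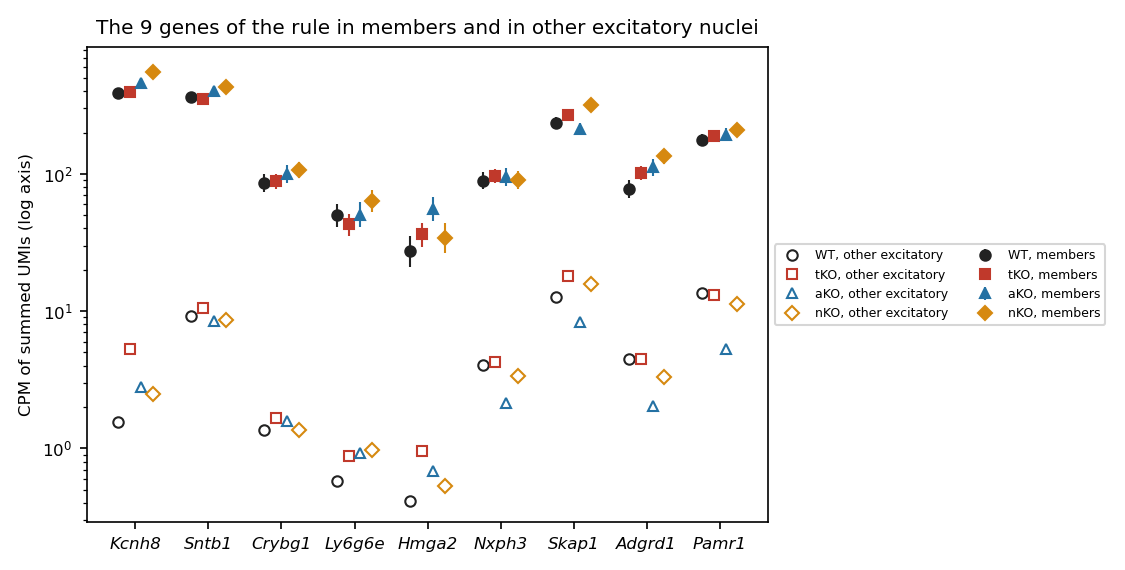
Levels of the 9 rule genes in CPM (log axis) in each library. Filled points are the selected neurons with 95% Poisson intervals and open points the other excitatory nuclei; the filled points lie above the open ones for every gene and library, and Hmga2 spans 27.3 to 55.5 CPM over the libraries.

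Up to the threshold, some genes outside the rule differed with the number of rule genes that a nucleus carried, and within the selected neurons the genes differed in this respect. Cntn6 went on from 1383 CPM with 4 rule genes to 2513 CPM with 8 and Sgcd from 4111 to 8878 CPM, while Grik1, Tshz2 and Alk showed no such order. The 244 nuclei just inside the threshold, with 4 rule genes, held 1383 CPM of Cntn6 and 383 CPM of Kcnip1, and the 406 just outside, with 3, held 648 and 173 CPM. Excitatory nuclei with no rule gene, 25168 in number, held 64.9 CPM of Cntn6 and 2726 CPM of Zbtb20, a transcription factor of hippocampal pyramidal and granule neurons. Zbtb20 stood at 569 CPM with 3 rule genes and 284 CPM with 4. These are levels summed over nuclei, of which Scrublet marked 25.1% with 3 rule genes and 20.1% with 4, and single nuclei were not examined.

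**Figure D2:**
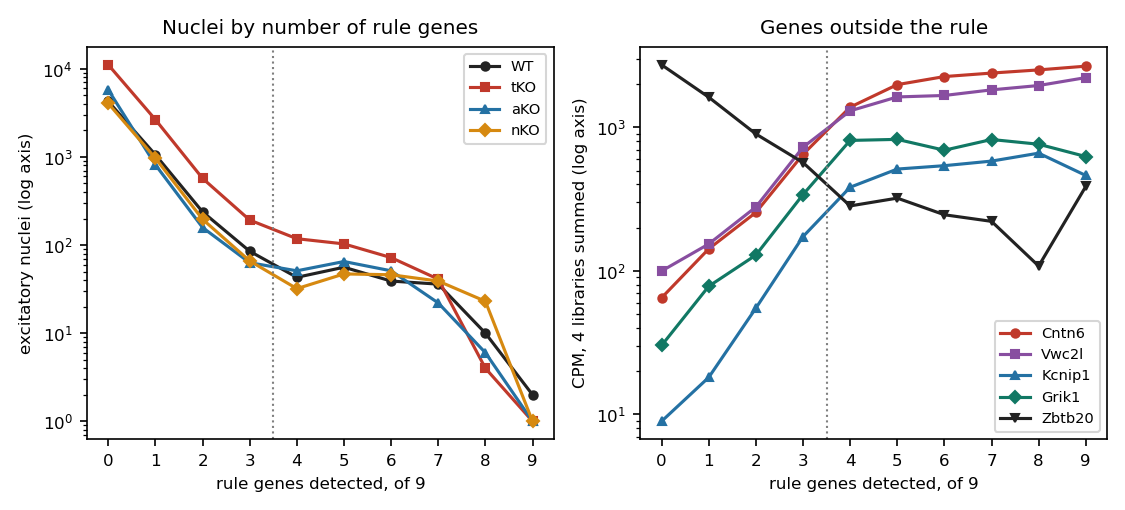
Left, number of excitatory nuclei by the number of rule genes detected, for each library (log axis). Right, levels of Cntn6, Vwc2l, Kcnip1, Grik1 and Zbtb20 in CPM (log axis) over the same scale, with the threshold as a dotted line; Cntn6 goes from 64.9 CPM with no rule gene to 1383 CPM with 4, and Zbtb20 from 2726 to 284 CPM.

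The label was checked against marker genes. Slc17a7, which the rule required, stood at 266, 268, 254 and 257 CPM, close to the 265 to 311 CPM of other excitatory nuclei. Slc17a6, the second vesicular glutamate transporter (chromosome 7, 51622006 to 51671119), stood at 57.4, 67.5, 50.0 and 69.0 CPM against 12.3 to 25.2 CPM and was thus over 2-fold higher in every library. Neurod6, a factor of cortical and hippocampal pyramidal neurons, stood at 68.6, 55.0, 67.4 and 61.1 against 48.8 to 69.1 CPM. Gad1, an enzyme of GABA synthesis, gave only 6, 12, 6 and 5 UMIs. The transmitter genes were thus those of excitatory neurons, with Slc17a7 and the Gad genes set by the rule. Camk2a, a kinase gene of forebrain excitatory neurons, was low at 245, 329, 314 and 262 CPM against 731 to 835.

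Markers of deep cortical classes were higher than in other excitatory nuclei, in part. A list gene is called here where it lay at least 2-fold higher, or lower, in all 4 libraries, which 3.95% of the 11115 genes tested did upward and 4.89% downward, with a median log2 ratio of 0.06. Of 5 near-projecting markers with enough counts, 4 were higher (median log2 ratio 2.47). Tshz2, a zinc finger factor, stood at 2122, 2507, 2209 and 2573 CPM against 337 to 497, and Vwc2l, a secreted von Willebrand factor C protein (chromosome 1, 70725715 to 70885397), at 1558, 1543, 1599 and 1794 against 103 to 148. Lypd1 and Sla2 were the other two. Trhr, the receptor for thyrotropin-releasing hormone, was not, at 10.3, 19.8, 13.6 and 11.6 against 8.55 to 13.1 CPM, and Slc17a8 gave only 8 UMIs in all. At least 3 near-projecting markers were detected in 468 of the selected neurons (51.5%) and in 4.58% of other excitatory nuclei.

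Of 5 layer 6 corticothalamic markers, 3 were higher (median 1.99): Tle4, a corepressor, at 647, 609, 699 and 696 against 106 to 148 CPM, Hs3st4, a heparan sulfate sulfotransferase, at 3325, 2967, 3449 and 3632 against 766 to 995 CPM, and Rprm. At least 3 of these markers were found in 50.7% of the selected neurons and in 11.2% of the rest. In layer 6b, Hcrtr2, the orexin receptor 2, was the one of 3 tested markers that was higher, at 98.6, 99.0, 116 and 134 against 11.3 to 13.7 CPM, while the defining Nxph4 and Cplx3 gave 6 and 4 UMIs in all. Of 3 markers of layer 5 extratelencephalic neurons, Fezf2, a factor of deep-layer output neurons, was higher at 66.3, 49.9, 53.8 and 57.9 against 11.9 to 14.4 CPM, and Pou3f1 was lower at 5.83, 6.23, 7.07 and 1.05 against 19.1 to 20.9 CPM. The summed levels thus held markers of several deep-layer classes, which were not examined together in single nuclei, and no further cell type name is given.

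Markers of dentate granule and CA1 neurons were low. All 6 dentate granule markers were lower (median -3.10), with Prox1 at 3.59, 13.6, 12.5 and 5.79 CPM against 62.7 to 70.9, and so were 4 of 5 CA1 markers (median -1.49), with Wfs1 at 2.24, 4.77, 6.52 and 4.21 against 18.3 to 21.5. Those of CA2 and CA3 neurons were mixed: of 5 tested, Amigo2 and Cpne4 were higher and Nectin3 lower (median 0.51), and 3 or more were detected in 205 of the selected neurons (22.6%) and in 17.5% of other excitatory nuclei, a pooled gap that turned by library, from 37.6% against 18.7% in WT to 18.9% against 21.9% in aKO. Of 5 subicular markers, Fn1 and Tpbg were higher and Dcn lower (median 1.16). At least 3 were found in 9 of the selected neurons (0.990%) and in 0.931% of other excitatory nuclei. At least 3 granule markers were seen in 28 of the selected neurons, of which Scrublet had marked 26, and at least 3 CA1 markers in 36, of which it had marked 26. These are 3.08% and 3.96%, against 22.8% and 18.6% of other excitatory nuclei. At least 3 oligodendrocyte markers were found in 26 nuclei (2.86%, against 3.94% of other excitatory nuclei), 18 of them in tKO, where 17 were marked as doublets. The summed level of the 6 oligodendrocyte markers ranged from 36.9 to 286 CPM over the libraries against 185 to 357 CPM in other excitatory nuclei. No selected neuron held 3 vascular or 3 choroid plexus markers, but only 0.0279% and 0.0838% of other excitatory nuclei did, so this does not set the groups apart. Folr1, Otx2 and Tmem119 were at 0.

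Outside the rule genes, 115 of 10554 genes (1.09%) were at least 4-fold higher than in other excitatory nuclei in all 4 libraries. The neurons were chosen by expression, so these genes describe them and are not a test. The 25 with the largest gap in their weakest library are named here. Among cell surface proteins, Cntn6, a contactin of the immunoglobulin superfamily that takes part in neurite and synapse formation (chromosome 6, 104492790 to 104863406), stood at 1939, 1940.1, 1808 and 2363 CPM against 70.3 to 119 CPM, log2 ratios of 4.02 to 4.68. The WT and tKO levels were close, aKO was lowest and nKO highest. Cbln2, a secreted cerebellin that binds neurexins at synapses, stood at 75.8, 60.1, 73.4 and 66.9 against 2.27 to 4.01 CPM. Plau, the urokinase plasminogen activator, was sparse at 4.48, 3.67, 7.61 and 11.1 against 0.144 to 0.361 CPM.

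Receptor genes formed the next group. Alk, a receptor tyrosine kinase (chromosome 17, 71868972 to 72604627), stood at 260.0, 282, 227 and 261 CPM against 6.78 to 12.6 CPM (log2 4.48 to 5.26). Ret, the receptor kinase of the GDNF family of growth factors, stood at 9.86, 13.9, 15.8 and 17.9 against 0.207 to 0.544 CPM. Grik1, which encodes the kainate receptor subunit GluK1 (chromosome 16, 87895900 to 88290265), stood at 767, 835, 667 and 846 against 32.7 to 64.5 CPM. Alk and Grik1 ranged little over the 4 libraries, while Ret was lowest in WT and highest in nKO. Gpr139, an orphan G protein-coupled receptor, stood at 22.4, 21.3, 15.8 and 27.9 against 1.21 to 1.57 CPM. Ppara, a nuclear receptor that senses fatty acids and their amides, stood at 11.7, 13.9, 15.8 and 21.1 against 0.558 to 0.966 CPM and was highest in nKO.

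Kcnip1, a calcium-binding subunit of Kv4 potassium channels (chromosome 11, 33629339 to 33993152), stood at 471, 477, 465 and 631 CPM against 7.88 to 21.8 (log2 4.45 to 6.0). Pirt, a membrane protein that regulates TRP channels, stood at 23.3, 22.0, 22.8 and 25.8 against 0.478 to 0.561 CPM, and Slc38a3, a glutamine transporter, at 7.62, 12.8, 10.3 and 15.3 against 0.0950 to 0.497 CPM. Rapgef3, a cAMP-activated exchange factor for Rap, stood at 56.9, 51.7, 44.6 and 58.5 against 2.79 to 4.50 CPM. Gli2, the transcription factor at the end of the Hedgehog pathway, stood at 18.8, 25.3, 26.1 and 24.2 against 0.464 to 0.653 CPM. For the named genes the separation of library levels follows from how they were picked, and it does not hold for single nuclei, many of which held no UMI of the sparse genes.

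Klhl1, an actin-binding Kelch protein, B4galnt3 and Cwh43 had log2 ratios of 3.57 to 4.38, 3.84 to 4.06 and 3.45 to 4.12. Abca12, Clic5, Tmem51 and Bard1, the partner of BRCA1, had ratios of 3.73 to 5.21, 3.85 to 4.71, 4.21 to 5.70 and 3.44 to 4.48, from 54 to 179 UMIs each. The noncoding genes Gm12962, 4930455G09Rik, Gm47902 and Gm32200 completed the set with 5.82 to 7.53, 5.76 to 6.14, 5.73 to 6.58 and 3.64 to 4.13. The labels do not say whether counting used strand, so reads of the antisense gene 4930455G09Rik cannot be told apart from those of a gene it overlaps. With marked doublets removed from both groups, 105 of the 115 genes kept the 4-fold gap and 136 had it in all.

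**Figure D3:**
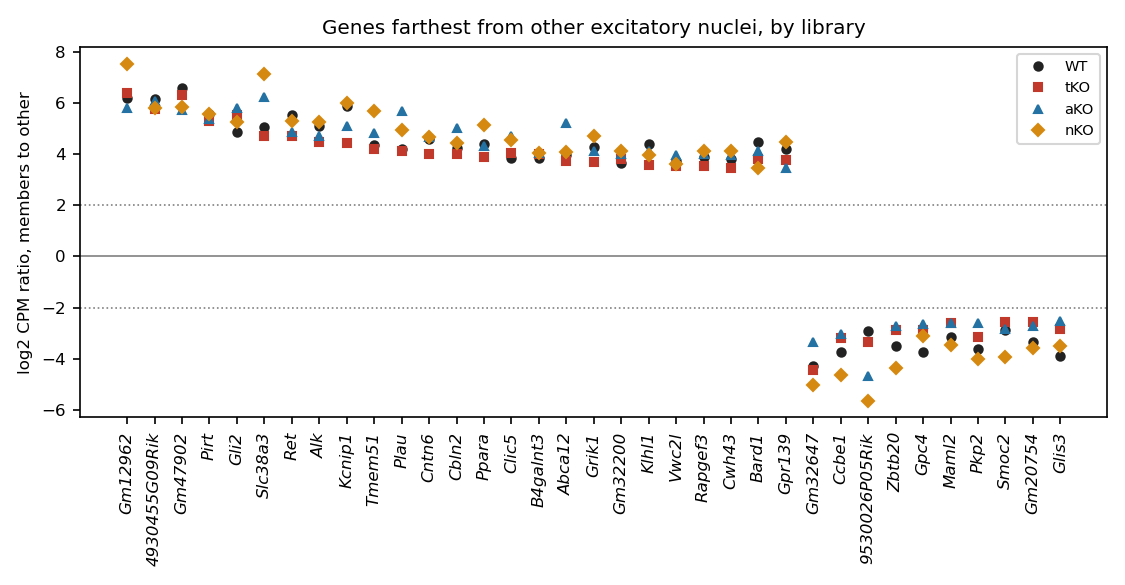
Log2 ratio of the level in the selected neurons to that in other excitatory nuclei for the 25 higher and 10 lower genes named in the text, 1 point per library. Dotted lines mark 4-fold; the points of all 4 libraries lie beyond them for each gene, from 4.02 to 4.68 for Cntn6 to -4.36 to -2.71 for Zbtb20.

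At least 4-fold lower in all 4 libraries were 47 of 3274 genes (1.44%) with at least 50 CPM in other excitatory nuclei. Zbtb20 (chromosome 16, 42875881 to 43642602) stood at 223, 283, 449 and 116 CPM against 2066 to 2948. Glis3, a zinc finger factor and one of the granule markers, stood at 14.3, 24.9, 30.4 and 15.3 against 178 to 222 CPM, and Maml2, a coactivator of Notch, at 29.6, 40.0, 56.5 and 23.2 against 248 to 347 CPM. Pkp2, a desmosomal plakophilin, Ccbe1 and Smoc2, both secreted matrix proteins, and Gpc4, a glypican, had log2 ratios of -4.02 to -2.59, -4.64 to -3.03, -3.94 to -2.58 and -3.73 to -2.63. The noncoding genes Gm32647, Gm20754 and 9530026P05Rik had -5.04 to -3.34, -3.58 to -2.57 and -5.64 to -2.90. The low genes depended on marked doublets more than the high ones: without them 102 genes were 4-fold lower, all 47 among them, and the mean log2 ratio of Zbtb20 went from -3.36 to -6.24.

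The families of the rule genes were looked at beside them. Among neurexophilins and neurexins, Nxph1 stood at 359.9, 389.8, 499 and 442 CPM against 11.6 to 41.6 CPM, and Nrxn3, a neurexin, had log2 ratios of -1.17 to -0.77. In the dystrophin complex, the membrane-linked scaffold to which Sntb1 belongs, 3 of 13 tested genes were higher and 2 lower (median 0.03). Sgcd, the delta sarcoglycan, stood at 5763, 5657, 6165 and 7364 CPM against 571 to 679, and Sgcz and Sntg2 were also over 2-fold higher, while the syntrophins Sntb2 and Sntg1 lay below. Dystrophin itself, Dmd, had ratios of -0.12 to 0.23. The complex therefore differed by subunit: delta and zeta sarcoglycan were high and dystrophin was at the level of the other nuclei.

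Nicotinic receptor genes also differed by subunit. Chrna5, an accessory subunit, stood at 49.3, 37.4, 45.7 and 51.6 CPM against 3.84 to 4.95, and Chrna4, its common partner, at 17.0, 16.1, 11.4 and 20.5 against 3.38 to 5.69 CPM. Chrna7, which forms receptors of a single subunit type, was low at 29.1, 34.8, 37.0 and 26.9 against 113 to 122 CPM. Chrm2, the muscarinic M2 receptor, stood at 169, 144, 218 and 151 against 30.9 to 48.5 CPM, and the muscarinic genes Chrm3 and Chrm1 did not pass 2-fold in all 4 libraries. Among Ly6 proteins besides Ly6g6e, Lypd1 was the one of 5 tested that was over 2-fold higher. Of the genes around Hmga2 and let-7, Lin28b, an RNA-binding repressor of let-7, had log2 ratios of 0.93 to 1.72, and Hmga1 and Igf2bp1 gave 2 and 1 UMIs in all.

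Glutamate receptor genes split in the same manner, with 5 of 25 higher and 3 lower (median -0.02). Besides Grik1, the kainate subunit gene Grik3 stood at 332, 316, 321 and 349.8 CPM against 65.1 to 98.0, and Grm4, Grm8 and Grin3a were also higher. The AMPA subunit gene Gria1 was low at 476, 650.1, 775 and 459 against 1947 to 2640.3 CPM, and Gria3 and the kainate subunit gene Grik4 were lower too. Of 12 GABA receptor genes, Gabrg3 was higher at 1600.3, 1499, 1625 and 1742 against 386 to 451 CPM and Gabra2 was lower at 93.7, 161, 164 and 76.9 against 542 to 754, as was Gabra4. Of 54 potassium channel genes 6 were higher and 6 lower, among the latter Kcnq5, an M-current channel gene, at 419.6, 527, 333 and 219 against 1838 to 2031 CPM. Of 20 calcium channel genes, Cacna2d2 was higher and 5 were lower, among them the auxiliary subunit gene Cacna2d3 at 139, 213, 201 and 98.0 against 885 to 1010.4 CPM.

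Among 23 tested peptide and monoamine receptors, 4 were higher and 6 lower. Htr2c, a serotonin receptor, stood at 486, 471, 372 and 319.8 CPM against 90.7 to 132, and Hcrtr2, Htr5a and Adra1b were the other 3. Crhr1, Npy2r and Cckbr, receptors for corticotropin-releasing hormone, neuropeptide Y and cholecystokinin, were among the lower ones. Grp, gastrin-releasing peptide, was the one of 7 tested neuropeptides that was higher, at 141, 95.7, 111 and 109.6 against 18.7 to 25.1 CPM, and Cck was lower, at 61.0, 77.4, 81.0 and 40.6 CPM and log2 ratios of -3.04 to -1.68. Slc1a2, a glutamate transporter gene that is best known from astrocytes, stood at 946, 816, 874 and 943 CPM against 205 to 270.2. The astrocyte markers Gfap, Aldh1l1 and Gja1 each gave under 10 UMIs in the selected neurons, and Slc1a3 was lower at 5.38, 4.03, 4.89 and 8.43 against 18.0 to 24.0 CPM.

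Of 57 axon guidance genes 6 were higher and 11 lower (median -0.16). Sema5b, a semaphorin, stood at 193, 219.6, 205 and 245 CPM against 15.9 to 19.9, and Ntn1 encodes netrin 1, at 5.38, 8.43, 12.5 and 12.1 against 0.855 to 2.39 CPM, with its receptor gene Dcc also among the higher ones. Slit2 and Ntng1 were lower, at 65.0, 90.9, 55.5 and 36.3 and 85.6, 118, 104 and 49.5 CPM against 271 to 302 and 343 to 515. Of 33 cadherin and protocadherin genes tested, Cdh22 and Cdh11 were higher and 9 lower (median -0.22). The summed level of the whole list was higher, at 12578 to 13421 CPM against 10345 to 12112. Of 29 transcription factors 6 were higher, among them Sox5 and Lmo4, and 8 lower, among them Cux2 and Meis2. No immediate early gene of 17 was higher, and Bdnf, Nptx2 and Fosl2 were lower, with Bdnf at 15.2, 22.0, 15.8 and 15.3 against 56.8 to 75.4 CPM.

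The selected neurons were not uniform. Rorb, a nuclear receptor best known from upper cortical layers, and Grik1 tended to be high in different nuclei, and the 766 nuclei not marked as doublets were split by them after this was seen. At least 1 UMI of Rorb was found in 333 of them and of Grik1 in 563, with both in 164, so the genes overlapped at that level. A nucleus with at least 2 UMIs of Rorb and fewer than 2 of Grik1 is on the Rorb side, and the reverse on the Grik1 side. The Rorb side held 169 nuclei (22.1%) and the Grik1 side 424 (55.3%), with at least 2 UMIs of both in 91 and of neither in 82. The Rorb side made up 23.1%, 19.6%, 25.6% and 21.2% of the nuclei by library, with 95% intervals that overlapped throughout. The correlation of the log levels of Rorb and Grik1 over the 766 nuclei was -0.61, and that of Grik1 and Alk 0.65, values that depend on each nucleus's depth and are a description.

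Of 8992 genes, 71 (0.79%) were at least 2-fold higher on the Rorb side in all 4 libraries and 64 (0.712%) on the Grik1 side. Gli2 stood at 65.5 to 124 CPM on the Rorb side and was almost absent on the Grik1 side, at 0 to 1.04 CPM. Bmpr1b, a receptor for bone morphogenetic proteins, stood at 175 to 259 against 0.955 to 2.07 CPM, and Galntl6, a glycosyltransferase, at 3767 to 4858 against 259 to 651 CPM. These genes were picked for such gaps in library levels, and Gli2 was sparse even on the Rorb side. Dkk2, a secreted regulator of Wnt signalling, stood at 56.3 to 123.5 against 1.52 to 9.33 CPM, and Cadps2, a regulator of dense-core vesicle release, at 618 to 808 against 53.9 to 79.3 CPM. Adamtsl1, Col12a1, Abi3bp, Kctd8 and Rprm were also over 2-fold higher there in all 4 libraries.

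On the Grik1 side, Alk stood at 410.3 to 486 CPM against 17.9 to 63.0 on the Rorb side. Edil3, an integrin-binding matrix protein, stood at 192 to 283 against 10.5 to 19.7 CPM, and Epha3, an ephrin receptor, at 296 to 383 against 15.9 to 56.3 CPM. In aKO the gap in Edil3 was smallest, and in nKO that in Alk. Of the serotonin receptor genes, which were not counted as a list by side, Htr4 stood at 251 to 278 against 14.1 to 63.0 CPM, Htr2a at 24.9 to 35.0 against 0 to 2.83 CPM, and Htr2c at 539 to 784 against 115 to 232 CPM. Col15a1, a collagen, was at 0 on the Rorb side in all 4 libraries and at 14.5 to 19.8 CPM on the Grik1 side. Ptger3, a prostaglandin E2 receptor, stood at 14.2 to 33.5 against 0 to 2.83 CPM.

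The levels of the rule genes by side are a description, since they chose the nuclei. Kcnh8 stood at 627 to 835 CPM on the Rorb side and 295 to 391 on the Grik1 side, and Adgrd1 at 119 to 236 against 56.3 to 74.6. Hmga2 leaned the other way, at 1.99 to 25.3 against 42.0 to 82.1 CPM, and so did Ly6g6e and Crybg1, with log2 ratios of -0.75 to -0.19 and -0.83 to -0.24. Nxph3, Skap1, Sntb1 and Pamr1 had log2 ratios between sides of -0.38 to 0.41, -0.37 to 0.32, -0.11 to 0.19 and -0.25 to 0.01, so these 4 genes were at similar levels on both. Vwc2l was high on both sides but lower on the Rorb side, at 1219 to 1869 CPM against 1899.6 to 2035 on the Grik1 side. Tshz2 stood at 951 to 1526 against 2919.6 to 3485 CPM. Foxp2 and Fn1 had ratios of 1.45 to 2.08 and 0.71 to 1.66, toward the Rorb side.

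**Figure D4:**
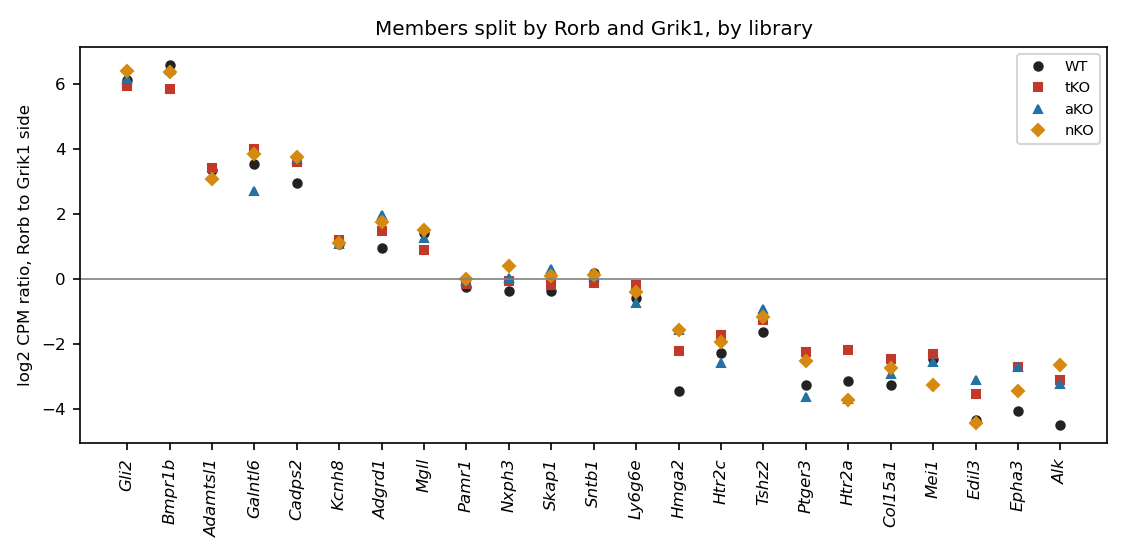
Log2 ratio of the level on the Rorb side to that on the Grik1 side for 23 genes, 1 point per library. Gli2 and Bmpr1b lie highest and Alk and Edil3 lowest, at 5.94 to 6.40 and -4.43 to -3.10 for Gli2 and Edil3, while Nxph3, Skap1, Sntb1 and Pamr1 lie near 0.

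Nuclei with and without Hmga2 were set side by side. The 129 unmarked nuclei with an Hmga2 UMI held 854 CPM of Htr2c and 84.6 CPM of Rorb, and the 637 without held 379 and 266 CPM. Htr2c was higher with Hmga2 in each library, by log2 ratios of 1.08 to 1.30, and Rorb lower, by -2.49 to -0.88. Fn1, fibronectin, stood at 27.9 CPM with Hmga2 and 103 without, and Ly6g6e at 66.2 against 55.9 CPM. Crybg1 stood at 51.8 against 113 CPM, but a nucleus without Hmga2 needed 1 more of the other rule genes to be chosen, which favours such a gap in any rule gene. Genes that vary with the rule genes can be reached too. Over the 766 nuclei Htr2c had correlations of -0.43 with Kcnh8 and 0.22 with Ly6g6e, and Rorb of 0.43 and -0.11. The part of the rule in the Htr2c and Rorb gaps was not tested. This split was also made after the values were seen. A nucleus without an Hmga2 UMI may still hold Hmga2 RNA that was not captured.

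Mgll, the targeted gene, was measured first for the comparison of genotypes. In the selected neurons it stood at 135, 96.1, 120.2 and 119 CPM (302, 262, 221 and 226 UMIs), and in other excitatory nuclei at 101, 78.4, 106 and 106 CPM. The tKO library was lowest, at a log2 ratio to WT of -0.49 (-0.74 to -0.25), while aKO had -0.17 (-0.43 to 0.08) and nKO -0.18 (-0.44 to 0.07). Mgll transcripts were thus counted in every knockout library, the total knockout included. The sources used here do not give the deleted exons, and counts per gene do not show whether the RNA is whole. The low tKO level was not found on every side. On the Grik1 side tKO was highest by a margin within the counting intervals, at 87.0 CPM against 79.3 in WT. On the Rorb side it stood at 161 against 212 CPM, and in nuclei with at least 2 UMIs of both genes at 60.6 against 175 CPM. In that last class aKO was lower still, at 46.5 CPM, and the tKO and aKO levels rest on 14 and 6 UMIs. The levels by side leave out marked doublets, which the pooled levels above include. Over the libraries Mgll stood at 161 to 215 CPM on the Rorb side and 75.3 to 87.0 on the Grik1 side, a gap between sides of 0.90 to 1.51 on the log2 scale.

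Other endocannabinoid genes in the selected neurons were mostly level with other excitatory nuclei or lower: of 13 tested, Plcb4 was higher and Napepld, Abhd6 and Ptgs2 lower (median -0.52). Plcb4, a phospholipase C on the route to 2-arachidonoylglycerol, stood at 372, 350.2, 410.0 and 548 CPM against 18.2 to 37.5. Cnr1, the CB1 cannabinoid receptor, was low at 26.9, 24.2, 19.6 and 10.0 against 52.9 to 64.3 CPM. It rested on 60, 66, 36 and 19 UMIs, and its log2 ratio to WT was -1.38 (-2.25 to -0.66) in nKO. Dagla, which makes 2-arachidonoylglycerol, stood at 66.3, 56.1, 69.1 and 66.4 CPM and differed from WT by -0.24 (-0.58 to 0.09) in tKO, 0.06 (-0.30 to 0.41) in aKO and 0.00 (-0.35 to 0.35) in nKO. Of 11 endocannabinoid genes with at least 100 UMIs, none was 2-fold different from WT in tKO or aKO, and Cnr1 alone in nKO.

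Across 8506 genes with at least 100 UMIs, few were 2-fold away from WT within the selected neurons. In tKO 39 (0.458%) were higher and 53 (0.623%) lower, in aKO 38 (0.447%) and 64 (0.752%), and in nKO 26 (0.306%) and 114 (1.34%). Without marked doublets, over the same genes, 28 were higher and 112 lower in tKO, 34 and 117 in aKO, and 31 and 129 in nKO, and of the higher genes 13, 18 and 22 were called both ways. In nuclei with a Y-linked UMI and no Xist the tKO counts were 74 higher and 35 lower, and 82 were higher in aKO and 44 in nKO. The minimum of 100 UMIs was applied to those nuclei alone, so fewer genes were tested and the counts are not shares of the 8506. The lower counts of aKO and nKO are not reported here. The 3 comparisons share the WT library. The counts over the 8506 genes include sex-linked genes. In tKO, Uty, Kdm5d and Eif2s3y were among the higher genes and Xist and Tsix among the lower, and Tsix was also lower in nKO. Median log2 ratios were -0.03, -0.03 and -0.02, and apart from the extremes at either end (the 10th and 90th percentiles) the ratios ran between -0.43 and 0.32 in tKO, -0.45 and 0.33 in aKO and -0.47 and 0.35 in nKO. Of the 9 rule genes none was 2-fold away in tKO or nKO, and Hmga2 alone in aKO, at 1.01 (0.55 to 1.5). All 9 were used to choose the nuclei in every library.

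Nek11, a cell cycle kinase of the NIMA family (chromosome 9, 105162156 to 105395524), was lower in all 3 knockout libraries. It stood at 43.9, 11.7, 12 and 12.6 CPM, from 98, 32, 22 and 24 UMIs in 46, 24, 18 and 19 nuclei, with log2 ratios to WT of -1.87 (-2.53 to -1.32), -1.83 (-2.62 to -1.20) and -1.75 (-2.51 to -1.14). WT was the high library and the 3 knockouts lay close together. In other excitatory nuclei Nek11 was at 4.51, 7.0, 5.57 and 7.35 CPM, lowest in WT. Of the 98 WT UMIs 53 lay on the Rorb side, where 21 of 40 WT nuclei had a UMI (105 CPM) against 7 of 49, 6 of 42 and 7 of 38 in the knockouts (36.8, 25.3 and 31.5 CPM). Besides Nek11, C77080 was lower in all 3 at 25.1, 9.90, 8.16 and 8.96 CPM, and Ntng2 and Mro were higher at 5.38, 24.9, 25 and 12.6 and 11.7, 24.2, 26.6 and 24.2 CPM, out of 8491 genes that could be called in all 3. These 3 genes were chosen after their values were seen, and without marked doublets the tKO ratio of Ntng2 was 0.76 (-0.82 to 2.60). In other excitatory nuclei the log2 ratios of Mro were 0.90, 0.69 and 0.87, and those of Ntng2 0.27, 0.26 and 0.30.

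Gm17167, a processed transcript (chromosome 4, 42206998 to 42235313), gave 1, 233, 0 and 69 UMIs, that is 0.448, 85.4, 0 and 36.3 CPM. It was almost absent in WT and aKO and present in 128 tKO and 43 nKO nuclei, with log2 ratios of 6.58 (5.08 to 12.88) and 5.36 (3.82 to 11.67). Other excitatory nuclei had the same order, 0.207, 62.2, 0.128 and 24.9 CPM. Within tKO it stood at 141 CPM on the Grik1 side (65 of 149 nuclei) and 14.1 CPM on the Rorb side (4 of 49), and within nKO at 51.3 CPM (25 of 98) and 21.01 CPM (5 of 38). In nKO it was at 31.7 CPM in unmarked nuclei with a Y-linked UMI and no Xist and at 39.8 CPM in those with the reverse. The labels name neither animals nor strain, so these cannot be told apart from genotype here or in any other ratio to WT.

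Npsr1, the neuropeptide S receptor, stood at 99.51, 62.7, 32.1 and 34.8 CPM, highest in WT, from 22, 38, 13 and 10 nuclei. Its log2 ratio was -1.62 (-2.07 to -1.21) in aKO. With at least 5 rule genes the ratio was -0.87, short of 2-fold. On the Grik1 side, where most of it lay, the levels were 194, 100.5, 56.3 and 50.2 CPM. Unmarked nuclei with a Y-linked UMI and no Xist stood at 150.4 CPM in WT, 35.3 in aKO and 42.3 in nKO, and those with the reverse at 71.0, 38.5 and 0 CPM, so the WT to aKO gap was under 2-fold in the latter. Spock1, a testican proteoglycan from the CA2 and CA3 list (chromosome 13, 57421195 to 57908332), stood at 397, 418, 410.0 and 113 CPM and was low in nKO, at -1.81 (-2.04 to -1.60). The same library was low in other excitatory nuclei, at 280.4, 300.2, 329 and 67.5 CPM. Within nKO, unmarked nuclei with a Y-linked UMI and no Xist stood at 203 CPM and those with the reverse at 24.7 CPM, so the pooled ratio describes neither, against 408 and 450 CPM in WT.

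Several other genes named by the comparison rested on few or marked nuclei. Hba-a1, Hbb-bs and Hba-a2, haemoglobin genes, were high in aKO, where 1 nucleus held all 109 UMIs of Hba-a1, 194 of the 198 of Hbb-bs and 100 of the 102 of Hba-a2. Hba-a1 and Hba-a2 are near-identical copies, so their reads may be split between them. The tKO ratios of St18 and Zfp804b were 0.51 (-1.65 to 2.90) and 0.66 (0.06 to 1.29) without marked doublets, and 2.31 and 2.23 with them. Synpr and Ndst4 were higher in aKO, at 2.00 (1.5 to 2.58) and 1.96 (1.48 to 2.52), from 23 and 17 nuclei, and at 2.40 (1.60 to 3.44) and 1.01 (0.12 to 1.97) without marked doublets. In tKO they were also high, at 48.4 and 54.6 CPM against 17.5 and 18.8 CPM in WT. Without marked doublets tKO stood at 10.7 and 2.97 CPM against 6.99 and 9.49 CPM. Erbb4 was higher in tKO at 1.84 (1.44 to 2.31), from 41 nuclei, as it was in other excitatory nuclei at a log2 ratio of 1.96, and without marked doublets the ratio was 2.65 (1.87 to 3.71).

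Of the lower genes, Ptgds, a prostaglandin D2 synthase, was at 33.6, 22.0, 4.35 and 0 CPM. Against the floor of 3 counts in nKO, 1.58 CPM, it was at least 21.3-fold lower there than in WT, where 45 of its 75 UMIs came from 1 nucleus. Without marked doublets the libraries stood at 13.0, 0.593, 4.48 and 0 CPM, and the bound fell to at least 7.66-fold against a floor of 1.70 CPM. Other excitatory nuclei were low in the same libraries, at 20.0, 28.5, 5.59 and 4.71 CPM. Tafa1, Sox2ot and Zfp804b were lower in nKO, at -2.18 (-2.50 to -1.89), -2.94 (-4.85 to -1.86) and -2.91 (-4.83 to -1.83), from 28, 5 and 5 nuclei. In WT they rested on 580, 53 and 52 UMIs from 25, 12 and 8 nuclei, with up to 84, 18 and 24 in 1 nucleus. In other excitatory nuclei the nKO ratios were 0.003, -0.67 and -0.09, with WT at 1896, 24.2 and 261 CPM. Without marked doublets the nKO ratios in the selected neurons were -2.58 (-3.11 to -2.14), -1.31 (-3.60 to 0.17) and -2.89 (-5.12 to -1.71). Tafa1 then stood at 148, 25.5, 53.0 and 24.3 CPM, against 260, 352, 308 and 56.9 CPM with all nuclei. Among unmarked nuclei tKO and aKO were thus below WT as well. Zfp804b stood at 20.5, 32.6, 6.71 and 2.26 CPM without marked doublets, so aKO was also below WT. Sst, somatostatin, was lower in tKO at -2.40 (-3.52 to -1.57), where 34 of the 55 WT UMIs came from 1 nucleus, at -1.75 (-4.02 to -0.41) without marked doublets and at -0.23 in nuclei with Y-linked UMIs and no Xist. Mei4 was lower in aKO at -1.59 (-2.33 to -0.98), and its levels of 42.1, 22.4, 13.6 and 16.3 CPM were below WT in every knockout library. Gm20642, Gm46367 and Gabarapl2 in tKO and AY036118 in aKO were lower by -1.20, -1.54, -1.37 and -1.15, and in other excitatory nuclei by -1.07, -1.17, -0.40 and -1.01. These were not low in the named library alone. AY036118 stood at 407, 297, 183 and 149 CPM, lowest in nKO, and Gabarapl2 at 54.7, 20.9, 32.1 and 24.8 CPM. Gabarapl2 was at -0.91 in nuclei with Y-linked UMIs and no Xist.

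The other genes named as higher in nKO had smaller ratios than Gm17167. Zfp143, Gm20033, Tmem184b and Plcg1, a phospholipase C, had log2 ratios of 1.41, 1.35, 1.01 and 1.18, with lower interval bounds of 0.63, 0.53, 0.53 and 0.53. Zfp143 and Gm20033 were not high in nKO alone. They stood at 8.07, 12.8, 20.7 and 22.1 and at 7.62, 12.8, 20.7 and 20.0 CPM. Among immediate early genes, 11 had enough counts, and Junb was over 2-fold lower in tKO and nKO and Egr1 in aKO. Egr1, an activity-induced transcription factor, stood at 30.0, 20.2, 10.3 and 17.4 CPM, and Junb at 32.3, 13.9, 17.4 and 12.1 CPM. The list's median log2 ratios were -0.12, -0.68 and -0.10 in the selected neurons and -0.21, -0.65 and 0.20 in other excitatory nuclei. The aKO value was thus low in both groups of nuclei.

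**Figure D5:**
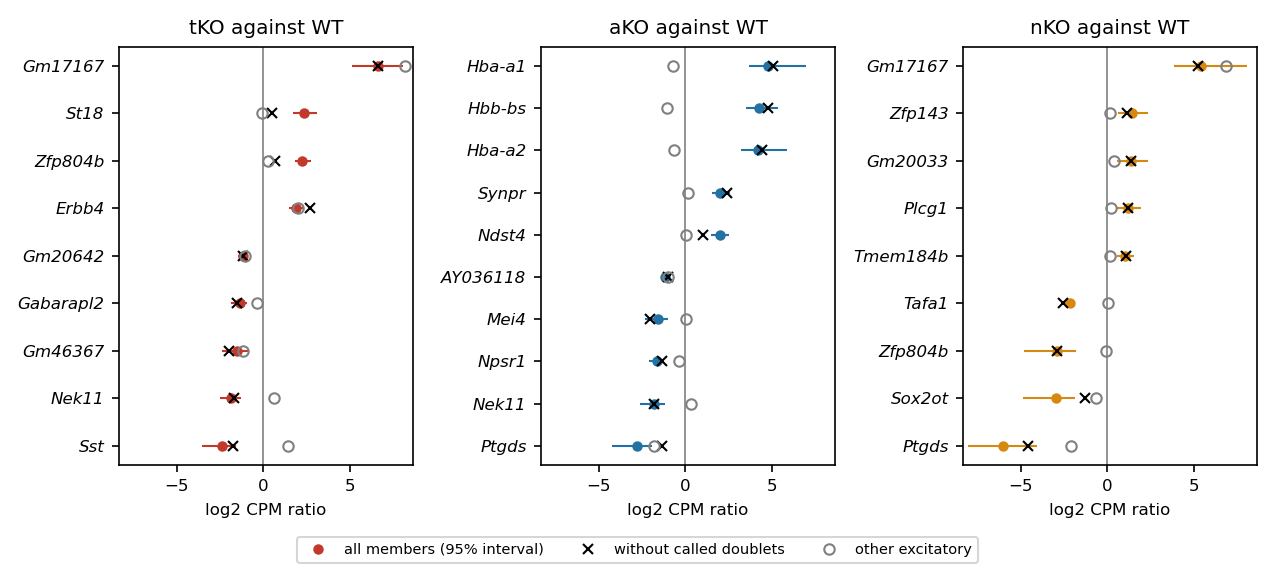
Log2 ratio to WT of the genes named in the comparison of each knockout library. Filled points are the selected neurons with 95% intervals (drawn to 8 on either side), crosses the same without marked doublets and open points other excitatory nuclei; Nek11 lies below 0 in the selected neurons and above 0 in the other nuclei in tKO and aKO.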

How the data were processed

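Nuclear RNA of hippocampus was counted in 4 libraries, 1 per genotype. The authors deposited whole-number UMI counts per gene and barcode, made with Cell Ranger ARC 2.0.0 on mm10, per the submitters' processing notes, and every barcode held between 400 and 5998 detected genes. The labels do not state the use of strand. The 20211 genes listed in all 4 libraries were used, and 19830 of them (98.1%) matched a symbol of GENCODE M21 (GRCm38), which gave the positions.

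Counts were summed per library over the selected neurons and over other excitatory nuclei and scaled to CPM. Log2 ratios of these levels had 1 UMI added to each sum. To be called 4-fold higher, genes needed 50 UMIs in the selected neurons, and 4-fold lower 50 CPM in other excitatory nuclei of every library. Genes of the lists needed 50 UMIs in the selected neurons, or 50 expected there from the mean level in other excitatory nuclei. Ratios to WT needed 100 UMIs. A call needed 4-fold in all 4 libraries, 2-fold for gene lists and between sides, and 2-fold in 1 library against WT. Intervals are exact 95% intervals (Poisson for levels, conditional binomial for ratios, Clopper-Pearson for shares) and, like the floor of 3 counts, cover counting error only. The sums held 2230873, 2727119, 1839190 and 1898257 UMIs. Scrublet (scanpy 1.11.5) called doublets library by library, assuming 0.8% of them for each 1000 barcodes; called nuclei were kept unless stated. Python 3.11.15, numpy 2.4.6, scipy 1.17.1, pandas 2.3.3, scikit-learn 1.9.0 and matplotlib 3.10.9 were used, and the counting steps were tested on simulated data.

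Named genes are the 25 with the highest smallest log2 ratio over the libraries, the 10 with the lowest largest ratio, and against WT the 5 per direction and library whose 95% interval lay farthest from 0, with the genes of the lists; a few are not reported here. Xist, Tsix, Y-linked and mitochondrial genes were left out when genes were named against WT, but not from the counts of genes 2-fold away. The neurons and gene lists were chosen with earlier results of these data known, and the Rorb and Grik1 sides, the Hmga2 split and the granule gate after values were seen, so none of them carries a test. The alternatives were a stricter rule, removal of marked doublets or of nuclei with over 5% mitochondrial UMIs, thinning to 2000 UMIs, other denominators, comparison groups, minimums, scalings and pseudocounts, nuclei with Y-linked UMIs only, and leaving out each library.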

Additional observations from a re-analysis of the deposited data

How the results depend on the processing

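No paired analysis was possible because each genotype has 1 library, and no change with a setting was tested for its cause. With at least 5 rule genes the shares were 1.54%, 0.715%, 1.36% and 1.76% (WT, tKO, aKO, nKO), and thinned to 2000 UMIs 0.148%, 0.161%, 0.145% and 0.310%, with 511, 3599, 302 and 453 shallower nuclei left out. Over excitatory nuclei only, a different denominator by construction, they were 3.19%, 2.28%, 2.80% and 3.44%. Genes 4-fold lower numbered 102 without marked doublets, 82 with the mean of the CPM of single nuclei and 73 with a minimum of 20 CPM, with 47, 45 and 47 of the 47 among them. Leaving out each library gave 104 to 137 genes higher and 47 to 65 lower.

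Against WT, genes with 100 UMIs after removal of marked doublets gave 13 higher in tKO (8 of the 39) and 18 in aKO (9 of the 38), with 65 and 73 lower; fewer genes pass the minimum then. A minimum of 20 UMIs, where counting error is larger, gave 290 higher and 396 lower in tKO, 322 and 433 in aKO, and 283 and 547 in nKO. Nuclei with Y-linked UMIs and no Xist gave 74 higher and 35 lower in tKO, 82 higher in aKO and 44 higher in nKO, of which 25, 12, 13 and 4 were called with all nuclei. The minimum of 100 UMIs was applied to those nuclei alone, so fewer genes were tested. With the top nucleus of each gene left out, an alternative chosen after seeing the data, Hba-a1, Hbb-bs and Hba-a2 in aKO turned to -1.72, -0.98 and -0.72. Of the other single-gene values, 197 against WT stayed and 24 moved, and against other excitatory nuclei 315 stayed and 35 moved. Scaling by the median of ratios shifted the log2 values by 0.03, 0.04 and 0.03, and the mitochondrial limit changed no count. Genes under about 100 UMIs are limited by depth.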

Other observations

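Spock1 in the nKO library differed between nuclei by their sex-linked transcripts. In selected neurons with a Y-linked UMI and no Xist UMI, not marked as doublets, it stood at 203 CPM (173 UMIs, 50 of 88 nuclei with a UMI), and in those with Xist and no Y-linked UMI at 24.7 CPM (18 UMIs, 10 of 75). In WT the same classes stood at 408 and 450 CPM and in aKO at 443 and 503 CPM. The nKO gap was also present in other excitatory nuclei, at 115 and 13.5 CPM. The labels do not say how many animals a library holds, so sex and animal cannot be told apart.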
